A study of Mus musculus with 12 samples.

Results

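The expression of 9 resident and alternatively activated macrophage genes was examined in epididymal white adipose tissue (eWAT), out of 23474 genes in the deposited table. The 9 genes were Mrc1, Folr2, Lyve1, Cd163, Timd4, Clec10a, Mgl2, Chil3 and F13a1. They were taken as a list of symbols matched to mouse Ensembl identifiers, and all 9 were found. Of these, 8 had a mean of at least 1 FPKM (a fragment count adjusted for transcript length and for library depth) in each comparison and were tested, and Timd4 stayed under that filter in all 4 comparisons. The 12 libraries were each made from the eWAT of 1 male C57BL/6J mouse, aged 17 weeks, after 12 weeks on a diet. Mice in the ND group ate a normal diet and mice in the HFD group ate a high-fat diet. The GT group received the high-fat diet with 0.25% (w/w) green tea extract, and the TJ group received it with 3% (w/w) Taeeumjowuitang (TJ), an extract of a mixture of medicinal plants. Each group had 3 libraries, drawn from groups of 10 mice.

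Adipose tissue holds resident macrophages that lie along its vessels, take up proteins and debris by endocytosis, and carry receptors such as the mannose receptor, the folate receptor beta and the hyaluronan receptor Lyve1. In obesity, macrophages derived from monocytes gather around dying adipocytes and take on a lipid-handling program. Alternative activation is the response of macrophages to the interleukins Il4 and Il13, which act through the receptor chain Il4ra and the transcription factor Stat6 and induce genes such as Chil3, Mrc1, Clec10a, Mgl2 and Retnla. Several of the 9 genes are not restricted to macrophages. Lyve1 also marks lymphatic endothelium, and Clec10a and Mgl2 are also made by dendritic cells.

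The libraries held roughly 10.0M to 19.1M fragments, estimated from the smallest steps between FPKM values. ND replicate 1 stood apart from the other libraries and carried transcripts of neighbouring tissues. Its 10 germ cell markers summed to 99169 FPKM and its 8 epididymis markers to 15859 FPKM, against at most 3036 and 1275 FPKM in the other 11 libraries. Libraries that stay in the tests carried such transcripts too. The germ cell sum was 3036 FPKM in ND replicate 3 and 2086 FPKM in HFD replicate 1, against 0.685 to 9.39 FPKM in TJ. The epididymis sum was 1275 FPKM in HFD replicate 2, against 3.65 to 12.1 FPKM in TJ. Their part in the values of the members was not tested. The 7 adipocyte markers summed to 3897 FPKM in ND replicate 1, against 16763 FPKM or more elsewhere, so the labelled tissue was poorly represented in it. The 9 genes summed to 17.7 FPKM in ND replicate 1 and to between 164 and 350 FPKM in the other libraries, and the tests against the ND group are given with and without it. The 12 pan-macrophage markers also differed between the groups. Their sum was 680 and 586 FPKM in ND replicates 2 and 3, and 1453 FPKM in ND replicate 1, of which Aif1 alone gave 1355 FPKM and the other 11 markers 98.2 FPKM. It ran from 4258 to 5758 FPKM in the HFD group, from 1661 to 3877 FPKM in the GT group and from 996 to 3187 FPKM in the TJ group. In whole tissue, fewer macrophages and less RNA of a gene per macrophage cannot be told apart.

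**Figure D1:**
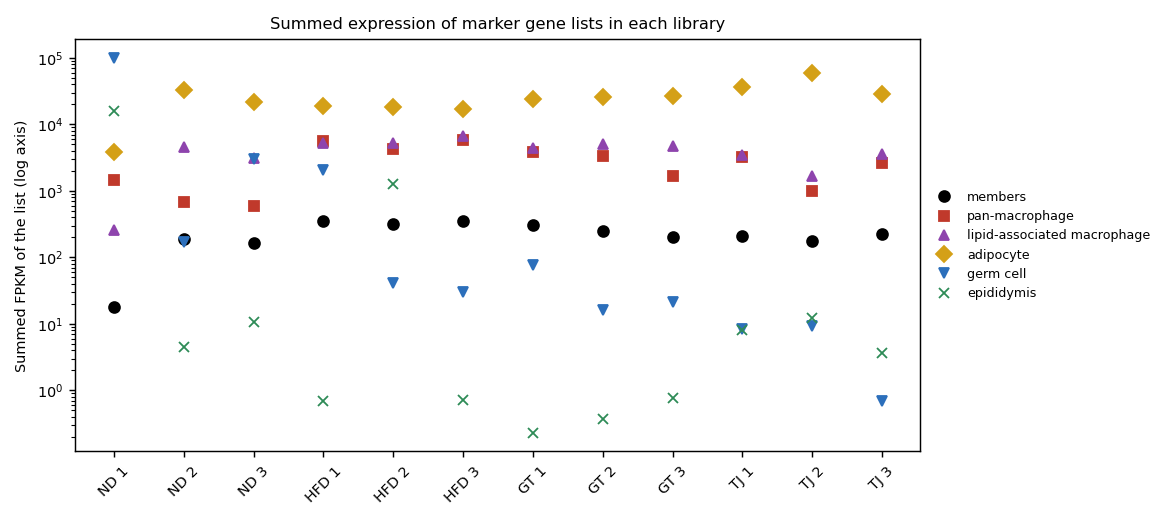
Summed expression of marker gene lists (FPKM, log axis) in each of the 12 libraries (x axis, group and replicate), with 1 symbol for each list. ND replicate 1 has the lowest adipocyte sum (3897 FPKM) and the highest germ cell sum (99169 FPKM), and the sum of the 9 macrophage genes lies between 164 and 350 FPKM in the other 11 libraries.

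FPKM is scaled to transcript length, so the levels of the 9 genes can be set side by side. By the mean over the 12 libraries, Folr2 (mean 65.3 FPKM) and Clec10a (58.5 FPKM) were the most abundant, followed by Mrc1 (35.9 FPKM), F13a1 (29.9 FPKM), Mgl2 (19.0 FPKM), Cd163 (12.7 FPKM) and Lyve1 (6.41 FPKM). Chil3 (2.56 FPKM) and Timd4 (0.495 FPKM) were low. The order differed between groups. F13a1 was above Clec10a and Mrc1 in ND replicates 2 and 3, and Clec10a, at 60.7 to 72.7 FPKM, was above Folr2, at 48.0 to 48.6 FPKM, in all TJ libraries. Timd4 rested on an estimated 2.83 to 44.3 fragments per library and Chil3 on 2.09 to 155, whereas Mrc1 rested on 1210 or more outside ND replicate 1. The low genes therefore carry the largest counting error.

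**Figure D2:**
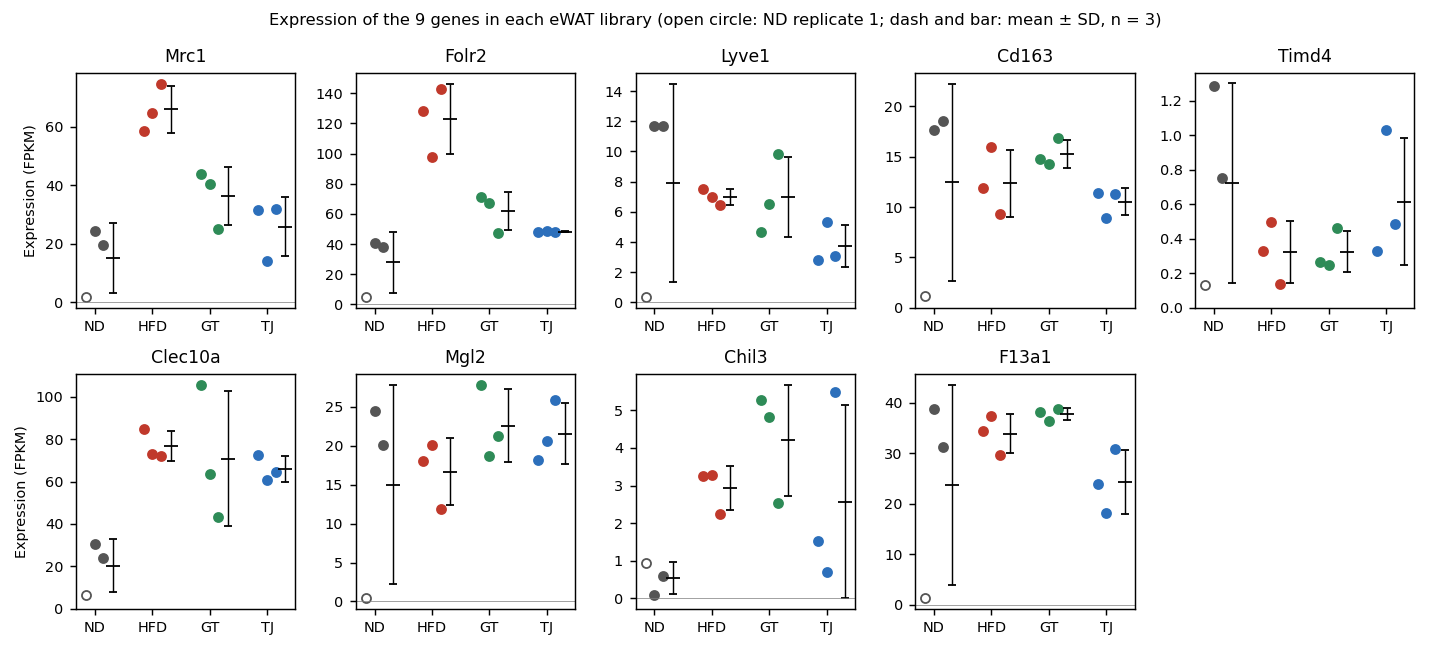
Expression (FPKM) of each of the 9 genes in the 12 libraries. Circles are libraries, with ND replicate 1 open, and the dash and bar give the mean and SD of 3 libraries. Mrc1 and Folr2 are highest in the HFD group and lie lower in all GT and TJ libraries, whereas Mgl2 overlaps between the HFD, GT and TJ groups.

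Mrc1 lies on chromosome 2 (14229392 to 14332057, plus strand, GRCm38 as annotated by GENCODE) and its body also holds the microRNA gene Mir511. Cd163 lies on chromosome 6 (124304656 to 124330527, plus strand). On chromosome 7 are Lyve1 (110850607 to 110863239, minus strand) and Folr2 (101839988 to 101857194, minus strand), the latter overlapped by 2 predicted genes on the opposite strand. Mgl2 (70130329 to 70137550) and Clec10a (70156197 to 70170834) are neighbours on the plus strand of chromosome 11, where Timd4 (46810800 to 46844332, plus strand) also lies. Chil3 is on chromosome 3 (106147554 to 106167564, minus strand) and F13a1 on chromosome 13 (36867178 to 37050244, minus strand). Clec10a and Mgl2 are close copies: 2.64% of the 100-base words in the transcripts of Clec10a also occur in Mgl2. Chil3 shares 3.42% of its 100-base words with its copy Chil4. Reads in these stretches could be split between the copies, so the values of both pairs are less certain.

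RefSeq (GRCm38.p6) gave a 250-base window before the start site for 7 of the 9 genes, 9 windows in all. They were searched on both strands for the core of the site of PU.1, the transcription factor that defines the macrophage lineage (GAGGAA), and for a Stat6 site (TTC and GAA with 4 bases between). The PU.1 core was found in 3 of the 9 windows and in 23.3% of the 32851 promoter windows of the same length. The Stat6 site was found in 0 of the 9 windows and in 5.85% of all windows. A match of letters is a description of the sequence and does not show a bound site. The 3 windows with the PU.1 core and 1 of the 2 windows of Folr2, the gene with the lowest adjusted p-value for TJ against HFD, are printed 5′ to 3′ on the strand of the gene, with the core or its complement in capitals. In Mrc1 (chr2:14229164-14229413) it occurs 3 times on the opposite strand, beginning 35, 167 and 180 bases before the start. In Mgl2 (chr11:70130107-70130356) it begins 225 bases and in F13a1 (chr13:37050245-37050494, minus strand) 66 bases before the start. The Folr2 window shown is chr7:101857191-101857440, minus strand, and its other start site has a window at chr7:101845332-101845581.
Mrc1: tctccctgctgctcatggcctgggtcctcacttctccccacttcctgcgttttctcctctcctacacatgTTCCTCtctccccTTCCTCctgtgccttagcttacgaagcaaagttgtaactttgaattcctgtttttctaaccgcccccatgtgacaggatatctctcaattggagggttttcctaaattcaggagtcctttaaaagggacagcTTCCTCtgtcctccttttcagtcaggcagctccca
Mgl2: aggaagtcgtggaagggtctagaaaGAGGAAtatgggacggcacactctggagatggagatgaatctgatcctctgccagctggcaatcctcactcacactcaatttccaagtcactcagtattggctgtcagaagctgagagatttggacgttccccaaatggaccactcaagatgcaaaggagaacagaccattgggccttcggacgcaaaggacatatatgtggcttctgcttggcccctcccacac
F13a1: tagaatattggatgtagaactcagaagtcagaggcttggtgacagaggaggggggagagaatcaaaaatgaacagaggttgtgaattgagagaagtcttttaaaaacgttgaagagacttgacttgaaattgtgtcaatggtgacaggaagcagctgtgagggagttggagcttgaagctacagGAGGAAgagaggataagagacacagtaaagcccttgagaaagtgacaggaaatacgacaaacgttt
Folr2: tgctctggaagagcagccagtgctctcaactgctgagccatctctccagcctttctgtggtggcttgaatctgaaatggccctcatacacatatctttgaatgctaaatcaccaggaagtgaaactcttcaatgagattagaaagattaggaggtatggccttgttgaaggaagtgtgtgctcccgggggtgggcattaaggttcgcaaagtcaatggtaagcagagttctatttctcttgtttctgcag

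The HFD group was compared with the ND group to ask how the genes differed with the high-fat diet. With all 6 libraries, none of the 8 tested genes was called by limma and 4 had an unadjusted p under 0.05, while 1.73% of the 14430 tested genes were called higher. These 4 genes, Mrc1, Folr2, Clec10a and Chil3, were higher in every HFD library than in any ND library, 4 of 8, as were 20.5% of all tested genes. On the log2(FPKM + 1) scale used for all fold changes, which understates the change of low genes, they differed by 2.55 ± 0.86 for Mrc1, 2.53 ± 0.81 for Folr2, 2.09 ± 0.57 for Clec10a and 1.39 ± 0.37 for Chil3 (SE; Benjamini-Hochberg adjusted p from 0.185 to 0.314 in limma). ND replicate 1 lay far below the other ND libraries for 3 of them, at 1.83 FPKM of Mrc1, 4.84 FPKM of Folr2 and 6.60 FPKM of Clec10a. Chil3 averaged under 1 FPKM in ND and passed the filter through the HFD group, so its direction was partly set by the filter. It was at 0.939, 0.0855 and 0.582 FPKM in ND replicates 1 to 3 and at 3.25, 3.29 and 2.25 FPKM in HFD replicates 1 to 3. The replicate numbers passed the rule used here for pairing, by the correlation of their deviations from the group means (0.55, 0.34 and 0.12). No label says what a number shares, and HFD replicate 3 and ND replicate 2, with different numbers, correlated at 0.63. The block is therefore given as an alternative only. With the number as a block, 0 of the 14430 genes were called by limma, with 2239 at an unadjusted p under 0.05. A fit over all 12 libraries called Folr2 (adjusted p = 0.0315 in limma) and Clec10a (0.0258) higher in HFD.

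Without ND replicate 1, 4 of the 8 tested genes were higher and 1 was lower in the HFD group, against 11% and 4.34% of the 13661 genes tested. None of the 4 overlapped with ND, as for 28% of the tested genes. Mrc1, the mannose receptor, was at 24.4 and 19.5 FPKM in the remaining ND libraries and at 58.7, 64.6 and 74.7 FPKM in the HFD libraries, a log2 fold change of 1.55 ± 0.16. Folr2, the folate receptor beta, was at 40.9 and 37.8 FPKM in ND and at 128, 97.6 and 143 FPKM in HFD (log2 fold change 1.60 ± 0.19). Both genes were therefore higher in every HFD library than in either ND library. Clec10a, a lectin that binds galactose-type sugars, was at 30.5 and 24.0 FPKM in ND and at 84.9, 72.9 and 72.2 FPKM in HFD (log2 fold change 1.46 ± 0.15). Chil3 (1.57 ± 0.34), a chitinase-like secreted lectin, rose as well, again having passed the filter through the HFD group, and the adjusted p-values of the 4 genes in limma ran from 0.00474 to 0.0373. In contrast, Lyve1 was lower in the HFD group, at 7.53, 6.99 and 6.43 FPKM against 11.7 FPKM in each of the remaining ND libraries. Its log2 fold change was -0.67 ± 0.14 (adjusted p = 0.0328 in limma). General macrophage markers and markers of other cell types moved in the same fit. Of the pan-macrophage markers 10 of 12 were called higher (median log2 fold change 2.84), as were 8 of 9 lipid-associated macrophage markers (median 4.77). Of the adipocyte markers 5 of 7 were called lower and 1 higher. Among the fibroblast and progenitor markers 3 of 6 were called higher, and of the mesothelium markers 3 of 5 were called lower. The part of all these cells in the values of the members was not tested.

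The other genes of the list did not pass the test without ND replicate 1. Cd163, the scavenger receptor for haptoglobin and haemoglobin complexes, was at 17.6 and 18.6 FPKM in the remaining ND libraries and at 11.9, 15.9 and 9.30 FPKM in HFD (log2 fold change -0.55, adjusted p = 0.189 in limma). Mgl2 differed by -0.42 (95% interval -1.05 to 0.21) and F13a1, the catalytic chain of coagulation factor XIII, by -0.04 (-0.45 to 0.37). F13a1 was at 38.8 and 31.1 FPKM in ND and at 34.5, 37.3 and 29.7 FPKM in HFD, so the groups overlapped. With ND replicate 1 in the fit, the signs of Lyve1 (0.40), Cd163 (0.50), Mgl2 (0.92) and F13a1 (1.27) turned, since that library held 0.353, 1.19, 0.433 and 1.35 FPKM of these genes. Timd4, the phosphatidylserine receptor of resident macrophages, was at 0.130, 1.29 and 0.749 FPKM in ND and at 0.331, 0.496 and 0.137 FPKM in HFD. In a fit with no filter its log2 fold change was -0.33 ± 0.28, and without ND replicate 1 the difference of the means was -0.61, with no test.

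The TJ group was compared with the HFD group to ask whether the extract altered these genes on the high-fat diet. Mrc1, Folr2 and Lyve1 were significantly lower in the TJ group, and the other 5 tested genes did not pass the test. The share of called genes was 3 of 8, and 11.1% of the 12807 genes tested were called lower. The 3 genes were also lower without overlap, as were 31.4% of all tested genes. Mrc1 was at 31.5, 14.2 and 32.1 FPKM in TJ replicates 1 to 3, against 58.7, 64.6 and 74.7 FPKM in the HFD libraries. The TJ mean was 0.393 of the HFD mean, with a log2 fold change of -1.39 ± 0.31 (adjusted p = 0.0311 in limma). Folr2 was at 48.0, 48.6 and 48.2 FPKM in TJ, with a mean of 48.2 ± 0.322 FPKM (SD, n = 3), against 123 ± 23.2 FPKM in HFD. The TJ libraries were thus closely grouped and all lay under the lowest HFD library, and the log2 fold change was -1.31 ± 0.17 (adjusted p = 0.0196 in limma).

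Lyve1, the hyaluronan receptor, was at 2.82, 5.32 and 3.11 FPKM in TJ, under the lowest HFD value of 6.43 FPKM, with a log2 fold change of -0.78 ± 0.21 (adjusted p = 0.0444 in limma). Lyve1 was also the least stable call, with an adjusted p of 0.0771 under median-of-ratios scaling, 0.160 under quantile normalization, 0.0511 with a filter of 5 FPKM and 0.0506 with no mean-variance trend. Of the 6 lymphatic endothelium markers, Pdpn was lower (log2 fold change -0.96) and the other 2 tested did not pass the test. Their sum was 22.3 to 24.3 FPKM in HFD and 10.6 to 19.0 FPKM in TJ, and the defining marker Prox1 was at most 0.174 FPKM in these groups. The part of lymphatic vessels in the Lyve1 values was not tested. The 6 fibroblast and progenitor markers moved with the 3 called genes. All 6 were lower in TJ than in HFD without overlap and 3 were called, Col3a1 (-1.89), Col1a1 (-1.62) and Pdgfra (-1.32), against 31.4% and 11.1% of all genes tested, and their sum was 1583 to 1731 FPKM in HFD and 680 to 935 FPKM in TJ. Of the 7 adipocyte markers 6 were called higher in TJ, against 7.41% of all genes tested. The adipocyte sum was 16763 to 19140 FPKM in HFD and 29148 to 59198 FPKM in TJ. The part of either kind of cell in the values of the 3 genes was not tested.

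The genes that did not pass in TJ against HFD included the lectins Clec10a and Mgl2. Clec10a was at 72.7, 60.7 and 64.7 FPKM in TJ and at 72.2 to 84.9 FPKM in HFD (log2 fold change -0.21, 95% interval -0.54 to 0.11). Mgl2 was at 18.2, 20.6 and 25.8 FPKM in TJ against 11.9 to 20.1 FPKM in HFD (0.37, -0.16 to 0.90). Their groups overlapped. Cd163 was at 11.4, 8.97 and 11.3 FPKM in TJ (log2 fold change -0.19, -0.67 to 0.30). F13a1 was at 23.9, 18.2 and 30.8 FPKM in TJ (-0.48, -0.97 to 0.00, adjusted p = 0.122 in limma), the highest TJ library lying above the lowest HFD library. Without TJ replicate 3, F13a1 was called lower (-0.67, adjusted p = 0.0437 in limma) and Lyve1 was not (adjusted p = 0.0723). Chil3 was spread widely in TJ, at 1.52, 0.702 and 5.49 FPKM, and its interval of -1.48 to 0.75 left the direction of a difference unresolved at this number of mice. Timd4 was at 0.326, 1.03 and 0.486 FPKM in TJ, with a log2 fold change of 0.27 ± 0.19 in the fit with no filter.

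The 3 calls for TJ against HFD depended on which libraries were in the fit. Without TJ replicate 2 the same 3 members were called, with 2023 of all genes. Without TJ replicate 3, Mrc1, Folr2 and F13a1 were called and Lyve1 was not, with 3412 of all genes. When TJ replicate 1 or any of HFD replicates 1 to 3 was left out, 0 of the 12411 to 12889 genes tested were called by limma, with 3732 to 4735 at an unadjusted p under 0.05, and the fold changes of the 3 genes kept their sign. A fit over all 12 libraries, which include ND replicate 1, called 0 of the 8 genes, with 0 of them at an unadjusted p under 0.05. Scaling moved the median of all tested genes on the log2 scale from -0.14 to -0.02 with median-of-ratios and 0.03 with quantile normalization, and the split of all calls from 949 higher and 1417 lower to 1285 and 1082 or to 1543 and 1151. Mrc1 and Folr2 were called lower under both scalings.

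**Figure D3:**
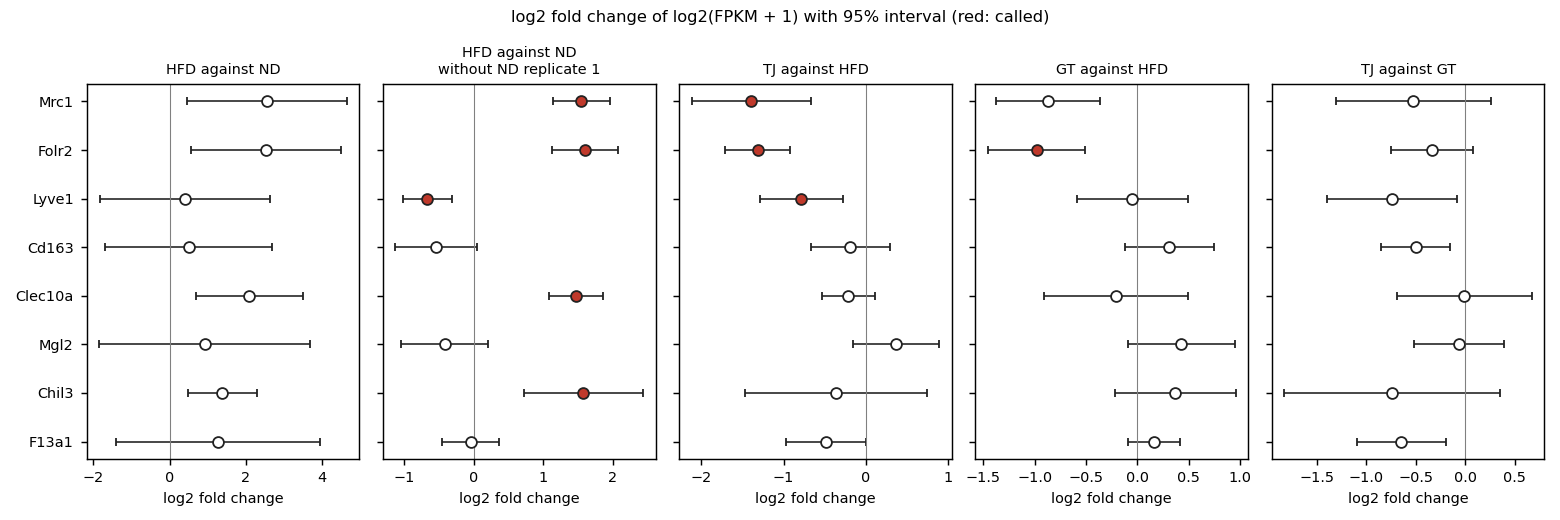
Log2 fold change of log2(FPKM + 1) for the 8 tested genes (rows) in each comparison, with the 95% interval of limma; filled red circles were called. The HFD against ND panels with and without ND replicate 1 differ in the sign of Lyve1, Cd163, Mgl2 and F13a1, and TJ against HFD has 3 called genes, all lower in TJ.

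The GT group was compared with the HFD group in the same way. Folr2 was significantly lower in the GT group, and it was 1 of the 8 tested genes called while 1.81% of the 12766 genes tested were called lower. Folr2 was at 71.0, 67.6 and 47.5 FPKM in GT replicates 1 to 3, with the mean at 0.504 of the HFD mean. Its log2 fold change was -0.98 ± 0.20 (adjusted p = 0.0482 in limma), and all GT libraries lay under all HFD libraries. The call was close to the threshold and was lost under median-of-ratios scaling, under which all calls shifted from 233 higher and 231 lower to 399 and 145. It was also lost without GT replicate 2 or 3 or any of the 3 HFD replicates. The fibroblast and progenitor markers were lower in GT too, 2 of 6 called (Pi16, -0.96, and Pdgfra, -0.85) and their sum at 951 to 1249 FPKM. Of the 7 adipocyte markers 3 were called higher, against 1.83% of all genes tested. The adipocyte sum was 23779 to 27130 FPKM in GT and 16763 to 19140 FPKM in HFD. The part of either kind of cell in the Folr2 values was not tested. Mrc1 was at 43.9, 40.3 and 25.1 FPKM in GT, also under all HFD libraries, so that 2 of 8 did not overlap, against 24.4% of the genes tested, and its log2 fold change of -0.87 ± 0.21 had an adjusted p of 0.0646 in limma. With single libraries left out this p ran from 0.0434 to 0.190 and was under 0.05 only without GT replicate 1.

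None of the other 6 tested genes was called in GT against HFD by limma, and none of them had an unadjusted p under 0.05. The members with an unadjusted p under 0.05, 2 of 8 here, were 5 of 8 under median-of-ratios scaling and 6 of 8 under quantile normalization, against 3744, 3546 and 3476 of the 12766 genes tested. Clec10a ranged from 43.3 to 106 FPKM in GT, a wider spread than in any other group. Lyve1 was at 4.65, 6.50 and 9.85 FPKM (-0.05, -0.59 to 0.49), and its sign turned under both other scalings. Cd163 (0.31, -0.12 to 0.75), Mgl2 (0.43, -0.09 to 0.95), Chil3 (0.37, -0.22 to 0.96) and F13a1 (0.16, -0.09 to 0.42) had positive fold changes. F13a1 was at 38.2, 36.4 and 38.7 FPKM in GT. Timd4 was at 0.265, 0.246 and 0.462 FPKM, a log2 fold change of 0.01 ± 0.12 in the fit with no filter. The GT and TJ comparisons share the 3 HFD libraries, so their values are not independent.

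The TJ and GT groups, which received different extracts at different doses, were compared directly. None of the 8 tested genes was called by limma, where 0.148% of the 12187 genes tested were called, and 3 of the 8 had an unadjusted p under 0.05, against 24.6% of them. The 3 genes were Cd163, F13a1 and Lyve1, all lower in TJ. Cd163 was 8.97 to 11.4 FPKM in TJ and 14.3 to 16.9 FPKM in GT, so the groups did not overlap (log2 fold change -0.50 ± 0.15, adjusted p = 0.133 in limma). F13a1 did not overlap either, at 18.2 to 30.8 FPKM in TJ and 36.4 to 38.7 FPKM in GT (-0.65 ± 0.19, adjusted p = 0.132 in limma). Among all tested genes, 14.9% were lower in TJ without overlap. Lyve1 (-0.74 ± 0.28) overlapped between the groups. Mrc1 (-0.52, 95% interval -1.31 to 0.26) and Folr2 (-0.33, -0.74 to 0.08) did not pass the test. Clec10a (-0.01, -0.69 to 0.68), Mgl2 (-0.06, -0.51 to 0.39) and Chil3 (-0.74, -1.83 to 0.36) did not pass it either.

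Because general macrophage transcripts moved with the diets, each gene was also expressed relative to the 12 pan-macrophage genes, as its log2(FPKM + 1) minus their mean in the same library. Among the pan-macrophage genes, 8 of 12 were called lower in TJ than in HFD, where 11.1% of all genes tested were (median log2 fold change -1.39, against -0.42 for the 8 tested genes and -0.14 for all tested genes). On this scale a difference is the fold change of the gene minus that of the reference, which was -1.42 for TJ against HFD, so most genes of the tissue were higher. Of all tested genes, 78.5% were higher in TJ than in HFD without overlap, with a median difference of 1.28, and of the 9 genes 5 were. These were Mgl2 (difference 1.79), Timd4 (1.69), Cd163 (1.23), Clec10a (1.21) and F13a1 (0.93), whereas the libraries overlapped for Chil3 (1.05), Lyve1 (0.63), Folr2 (0.10) and Mrc1 (0.03). With 3 libraries a group the exact two-sided permutation test cannot go below 0.1, which those 5 genes reached, or 0.24 after adjustment over the 36 tests made. TJ replicate 2 had the lowest pan-macrophage sum of the TJ libraries (996 FPKM). Without it, the differences of Timd4 and Clec10a were 1.05 and 0.80, and those of Mrc1, Lyve1 and Folr2 turned negative.

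In GT against HFD, 55.7% of all tested genes were higher on this scale without overlap, with a median difference of 0.73, and 5 of the 9 genes were, namely Mgl2 (1.28), Chil3 (1.22), Cd163 (1.17), F13a1 (1.01) and Clec10a (0.65). Mrc1 (-0.02) and Folr2 (-0.13) lay near 0. The same measure was lower in HFD than in ND for all 9 genes, as for 99% of all tested genes. With ND replicate 1, 5 of the 9 did not overlap, against 94.7% of all tested genes, and without it all 9, against 96.4%. Without ND replicate 1 the median of all tested genes was -2.62, and the genes were at -3.27 (Lyve1), -3.20 (Timd4), -3.14 (Cd163), -3.02 (Mgl2), -2.64 (F13a1), -1.13 (Clec10a), -1.05 (Mrc1), -1.02 (Chil3) and -0.996 (Folr2). With it the median was -3.02, and they were at -2.68, -3.42, -2.59, -2.17, -1.82, -0.99, -0.53, -1.70 and -0.55 in the same order. The position of Lyve1, Cd163, Mgl2 and F13a1 against the median thus turned with that library, whereas Clec10a, Mrc1, Chil3 and Folr2 lay closer to 0 than the median in both. As a plain ratio, Mrc1 was at 0.381 ± 0.0514 of the FPKM of Csf1r, the receptor for the macrophage growth factor, in HFD, at 0.403 ± 0.0378 in TJ and at 0.337 ± 0.0275 in GT (SD, n = 3). The HFD, TJ and GT groups overlapped in this ratio of Mrc1, which was 0.525 ± 0.142 in ND. Set against Csf1r in the same way, Mgl2, Timd4, Cd163, Clec10a and F13a1 were higher in TJ than in HFD without overlap. The TJ and HFD libraries overlapped for Lyve1, Folr2 and Chil3, and the share of all genes was not computed for this ratio.

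**Figure D4:**
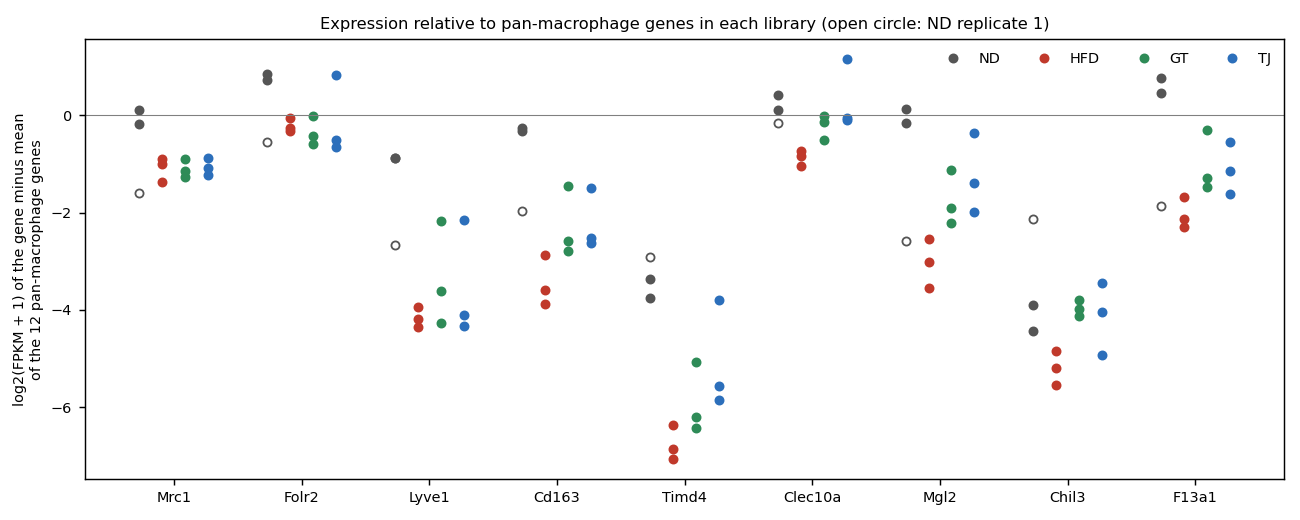
Expression of the 9 genes relative to the mean of 12 pan-macrophage genes (y axis, difference of log2(FPKM + 1)) in each library, coloured by group, with ND replicate 1 as an open circle. HFD libraries lie below all GT and TJ libraries for Mgl2, Cd163, Clec10a and F13a1, whereas HFD, GT and TJ libraries overlap for Mrc1 and Folr2. On this scale 78.5% of all tested genes were higher in TJ than in HFD without overlap, and 55.7% were higher in GT.

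The genes of the pathway upstream of alternative activation were followed through a list of 16. In TJ against HFD, 2 of the 12 tested were lower and 0 higher, namely Il13ra1, a chain of the Il13 receptor (log2 fold change -0.92), and the kinase Jak1 (-0.82), where 11.1% of all genes tested were called lower and 7.41% higher. Klf4, a transcription factor induced by Stat6 signals, had the highest value of the list (0.48) and stayed under the 1.5-fold minimum. Stat6 itself was at 55.9, 44.4 and 67.1 FPKM in TJ and at 68.3 to 70.2 FPKM in HFD, and did not pass the test. In GT against HFD, 1 of 13 was called, the Il33 receptor Il1rl1 (-0.63), with 1.81% of all genes called lower. When ND replicate 1 was left out, Il1rl1 (0.92), the shared cytokine receptor chain Il2rg (1.01) and Jak1 (0.64) were higher and the transcription factor Irf4 (-1.28) was lower in HFD than in ND, 4 of 13 tested, where 11% of all genes were called higher and 4.34% lower. With ND replicate 1, 0 of 13 were called by limma and 2 had an unadjusted p under 0.05, with values from -0.52 (Klf4) to 1.62 (Il2rg). In TJ against GT, 0 of 12 were called by limma, with 0 at an unadjusted p under 0.05 and values from -0.43 (Il13ra1) to 0.48 (Il2rg). Transcripts of Il4 and Il13 were at most 0.445 and 0.453 FPKM in any library.

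Among 10 other genes of alternative activation, Retnla, a secreted resistin-like protein that fat cells and macrophages both make, was higher in TJ than in HFD. Retnla was at 408, 320 and 190 FPKM in HFD and at 1311, 1694 and 951 FPKM in TJ, and its log2 fold change was 2.13 ± 0.33 (adjusted p = 0.0223 in limma). The GT libraries, at 721, 789 and 794 FPKM, were also above HFD (log2 fold change 1.39, adjusted p = 0.0433 in limma). No HFD library overlapped those of TJ or GT. The adipocyte marker sum was higher too, from 16763 to 19140 FPKM in HFD, 23779 to 27130 FPKM in GT and 29148 to 59198 FPKM in TJ, and its part in the Retnla values was not tested. Tgm2, a transglutaminase, was lower in TJ than in HFD (-0.69), and the transcription factor Egr2 had the lowest value of the list (-1.74) without passing the test, so that 1 of 5 tested rose and 1 fell, against 7.41% and 11.1% of all genes tested. In GT, Retnla was the 1 of 5 called, where 1.83% of all genes were called higher, and Egr2 had the lowest value (-0.78). Leaving out ND replicate 1, Egr2 (3.59) and Tgm2 (0.99) were higher in HFD than in ND, 2 of 5 tested against 11% of all genes, Egr2 having passed the filter through the HFD group, and Retnla had the lowest value (-1.63). With it, 0 of 6 were called by limma, 2 had an unadjusted p under 0.05, and values ran from -1.08 (Ccl17) to 2.76 (Egr2). In TJ against GT, 0 of 5 were called by limma, with 2 at an unadjusted p under 0.05, from -0.95 (Egr2) to 0.74 (Retnla).

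Of 13 other genes of resident macrophages, 12 were tested in TJ against HFD, and 2 were higher and 2 lower, where 7.41% and 11.1% of all genes tested were called. Ltc4s, which makes leukotriene C4 (log2 fold change 1.38), and the lectin Cd209f (0.64) were higher, whereas the scavenger receptor Stab1 (-0.68) and the complement receptor Vsig4 (-1.01) were lower. Vsig4 averaged 0.701 FPKM in TJ and passed the filter through the HFD group. In GT against HFD, the lectin Cd209d (1.12) was higher and Stab1 (-0.76) lower, again of 12 tested, where 1.83% and 1.81% of all genes were called. Without ND replicate 1, Stab1 (1.45) and the chemokines Ccl8 (1.92) and Pf4 (0.94) were higher in HFD than in ND, 3 of 12 tested against 11% of all genes, with Cd209d lowest (-1.03). With it, 0 of 12 were called by limma and 4 had an unadjusted p under 0.05, from -0.51 (Cd209d) to 2.07 (Selenop). In TJ against GT, 0 of 11 were called by limma and 1 had an unadjusted p under 0.05, from -0.65 (Ccl8) to 0.79 (Ltc4s). Fcna, a ficolin, was listed at 0 in all 12 libraries.

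A last list of 5 held F13b and genes of the handling of heme, iron, amino acids and polyamines. Hmox1, the heme oxygenase that acts after Cd163 has taken up haemoglobin, was lower in TJ than in HFD (log2 fold change -1.29), the 1 of 4 tested that was called, while 11.1% of all genes tested were called lower. The iron exporter Slc40a1 had the highest value (0.18). In GT against HFD, 0 of 4 were called by limma, 2 had an unadjusted p under 0.05, and values ran from -0.81 (Hmox1) to 0.10 (Slc40a1). Without ND replicate 1, Hmox1 was higher (2.58) and Slc40a1 lower (-0.83) in HFD than in ND, 2 of 4 tested, where 11% and 4.34% of all genes were called. With it, 0 of 4 were called by limma and 1 had an unadjusted p under 0.05, from -0.38 (Odc1, the enzyme of polyamine synthesis) to 3.30 (Hmox1). In TJ against GT, 0 of 3 were called by limma and 0 had an unadjusted p under 0.05, from -0.47 (Hmox1) to 0.34 (Odc1). F13b, which encodes the carrier chain of factor XIII, was at most 0.0754 FPKM, while F13a1 reached 38.8 FPKM.

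Marker lists of cells that share genes with the list were set beside it. The 9 lipid-associated macrophage markers summed to 5270 to 6709 FPKM in HFD, 4490 to 5005 FPKM in GT and 1683 to 3578 FPKM in TJ, and 2 of 9 were called lower in TJ, where 11.1% of all genes were, with 7 of 9 at an unadjusted p under 0.05 (median log2 fold change -2.41). Much of this sum was Lpl, which fat cells also express, and the other 8 markers summed to 2707 to 3843 FPKM in HFD, 827 to 2071 FPKM in GT and 538 to 1438 FPKM in TJ. In ND replicates 1 to 3 these 8 markers summed to 53.9, 200 and 175 FPKM. In GT against HFD, 0 of the 9 were called by limma and 7 had an unadjusted p under 0.05 (median log2 fold change -1.24). The 6 dendritic cell markers summed to 12.5 to 15.3 FPKM in HFD, 17.9 to 21.5 FPKM in GT and 17.8 to 25.3 FPKM in TJ. Clec10a and Mgl2 are made by such cells too, and the part of dendritic cells in their values was not tested. The 5 monocyte markers summed to 48.3 to 56.4 FPKM in HFD, 36.3 to 67.7 FPKM in GT and 26.6 to 56.3 FPKM in TJ. Of the 4 tested, 1 was called lower in TJ than in HFD, against 11.1% of all genes tested. The 6 neutrophil markers summed to 53.1 to 62.1 FPKM in HFD, 35.3 to 76.2 FPKM in GT and 15.95 to 75.7 FPKM in TJ. Nearly all of this was S100a8, which was higher in HFD than in ND without ND replicate 1 (log2 fold change 2.60) but not called with it (3.67, adjusted p = 0.155 in limma), while Ly6g was listed at 0 in 11 of the 12 libraries. The 6 eosinophil markers summed to 34.9 to 72.7 FPKM in HFD, 54.1 to 85.7 FPKM in GT and 37.2 to 110 FPKM in TJ. Ear2 made up most of that sum and did not pass the test in any comparison, while the granule gene Epx was at most 0.122 FPKM.

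The genes fell into different patterns across libraries. Over 11 libraries, ND replicate 1 being left out, Mrc1 correlated with Folr2 at r = 0.892, but with Cd163 at r = -0.142 and with Mgl2 at r = -0.438 (Pearson, log2(FPKM + 1)). Its values with the other members were 0.620 (Clec10a), 0.599 (Chil3), 0.450 (F13a1), -0.146 (Lyve1) and -0.741 (Timd4). Without the whole ND group, Mrc1 correlated with Folr2 at 0.865, with Cd163 at 0.179 and with Mgl2 at -0.428. With all 12 libraries, the correlation with Cd163 was 0.743 and that with Mgl2 0.748, so these values rested on ND replicate 1, in which all 3 genes were lowest. Over the 11 libraries, the genes most like each member among all tested were Galnt7 for Mrc1 (r = 0.990), Tubb2b for Folr2 (0.986), Abhd5 for Lyve1 (0.917), Zbtb16 for Cd163 (0.931), Arrb2 for Clec10a (0.979), Cd209a for Mgl2 (0.886), S100a8 for Chil3 (0.957) and Lypla1 for F13a1 (0.958). These values are the highest of the correlations with all tested genes over libraries that share the diet groups, and they are given as a description.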

How the data were processed

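RNA-seq of eWAT was analysed from the FPKM values that the authors deposited for 12 libraries. Per the labels and the methods, reads were called with CASAVA 1.8.2, mapped with STAR (2.4.0 in the submitters' processing notes, another version in the methods) and summarised with Cufflinks 2.1.1, with correction for multireads and fragment bias, which can share reads between copies. The methods name the human genome, whereas all 23474 identifiers are mouse. GENCODE mouse release 21 named 22671 of them.

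Pairs of groups were tested by limma 3.58.1 under R 4.3.3 (eBayes with a mean-variance trend, two-sided) on log2(FPKM + 1), with only the 6 libraries compared and no covariates, over all genes averaging 1 FPKM or more. A gene was called at a Benjamini-Hochberg adjusted p under 0.05 and a fold change of 1.5 or more. Exact permutation tests were run in scipy 1.17.1, other steps used python 3.11.15, numpy 2.4.6 and pandas 2.3.3, and figures were drawn with matplotlib 3.10.9. The fit was tested on simulated data.

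The 9 genes, the lists and the tests were chosen with earlier results of these data known, and 1 further gene of the list and 2 of other lists are not reported here. All 9 genes are named, and of the 4 pathway and macrophage lists the called genes and the largest and smallest log2 fold change, while marker lists of cell types are given as sums and counts, besides a few genes chosen after their values were seen (Stat6, Il4, Il13, Aif1, F13b, Fcna and the markers of single cell types). Replicate numbers were taken to pair libraries where the correlation over genes of their deviations from the group means was over 0.1 for all 3 numbers. This held for HFD against ND (0.55, 0.34 and 0.12), although HFD replicate 3 and ND replicate 2, with different numbers, correlated at 0.63. It did not hold for the other comparisons. The depth was approximate, so no counting interval was derived. The protein sequences of Clec10a and Mgl2 were not used here.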

Additional observations from a re-analysis of the deposited data

Results flagged for a closer look

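Cd163 had fold changes of opposite sign in the extract groups. Every TJ library lay below and every GT library above the mean of the HFD libraries, with log2 fold changes of -0.19 for TJ against HFD and 0.31 for GT against HFD. With single libraries left out, the value of Cd163 for TJ against HFD ran from -0.36 without HFD replicate 3 to -0.0022 without HFD replicate 2, and it was -0.058 with median-of-ratios scaling, -0.0026 with quantile normalization and -0.028 with the length trend removed. F13a1 lay on opposite sides in the same way in every TJ and GT library, with log2 fold changes of -0.48 for TJ and 0.16 for GT against HFD. Neither gene passed the test in either comparison with all 6 libraries, and without TJ replicate 3 F13a1 was called lower in TJ than in HFD (-0.67, adjusted p = 0.0437 in limma). The direct comparison of TJ with GT, which tests the difference of these effects, gave adjusted p-values of 0.133 for Cd163 and 0.132 for F13a1 in limma, so neither passed there. Both genes were flagged by the positions of these same libraries, so this comparison is not a separate result. By that rule the TJ and GT groups could not overlap, and 14.9% of all tested genes were lower in TJ than in GT without overlap. Neither extract group was apart from HFD for either gene.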

How the results depend on the processing

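The precision is limited by 3 mice a group, by ND replicate 1 and, for Timd4 and Chil3, by low fragment numbers. For HFD against ND, where 0 of the 8 members and 255 of all genes were called by limma (4 members at an unadjusted p under 0.05), the members called were 2 with all 12 libraries in the fit. All genes called were 126 with the pseudocount of 0.1 and 1131 with all 12 libraries. Leaving out 1 library gave 0 to 5 members and 0 to 2098 genes. For TJ against HFD (3 members, 2366 genes), no filter left 1 member and 382 genes, all 12 libraries left 0 members and 1 gene, and leaving out 1 library gave 0 to 3 members and 0 to 3412 genes, F13a1 taking the place of Lyve1 without TJ replicate 3. For GT against HFD (1 member, 464 genes), no filter left 0 members and 5 genes, a mean of at least 5 FPKM gave 2 members, median-of-ratios scaling left 0 members, all 12 libraries left 0 members and 1 gene, and no mean-variance trend left 0 members and 67 genes. Leaving out 1 library gave 0 to 2 members and 4 to 1107 genes. For TJ against GT (0 members, 18 genes), a pseudocount of 0.1 gave 11 genes, the lack of a filter 6, the 5 FPKM filter 6, quantile normalization 29, all 12 libraries 4, and leaving out 1 library 4 to 81, with 0 members each time. The cause of these shifts was not tested.

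With the replicate block, 0 members and 0 genes were called for HFD against ND, and 0 members and 5 genes for GT against HFD. For TJ against HFD the block left 2 members and 1198 genes, with Lyve1 at an adjusted p of 0.0732 in limma, and for TJ against GT 0 members and 18 genes. Outside HFD against ND the numbers did not pass the rule used for pairing.

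Of the fold changes, those that turned were not called with all 6 libraries. Without ND replicate 1, HFD against ND turned to -0.55 for Cd163, -0.67 for Lyve1, -0.42 for Mgl2 and -0.044 for F13a1, and over all single libraries left out the values ran from -0.55 to 1.03, from -0.67 to 0.94, from -0.42 to 1.65 and from -0.044 to 2.0. For TJ against HFD, Chil3 ran from -0.91 to 0.051. For GT against HFD, Lyve1 was 0.071 with median-of-ratios scaling and 0.14 with quantile normalization and ran from -0.29 to 0.18, and Clec10a from -0.54 to 0.098. For TJ against GT, Clec10a was 0.015 with median-of-ratios scaling and ran from -0.31 to 0.32, and Mgl2 from -0.19 to 0.092.

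Relative to the pan-macrophage genes, with 1 library left out, TJ against HFD ran from -0.11 to 0.12 for Mrc1, from -0.056 to 1.03 for Lyve1 and from -0.37 to 0.37 for Folr2, and GT against HFD from -0.16 to 0.074 for Mrc1. TJ against GT ran from -0.053 to 0.15 for Mrc1, from -0.30 to 0.48 for Cd163, from -0.86 to 0.42 for Lyve1, from -0.24 to 0.50 for Folr2, from -0.52 to 0.22 for Chil3 and from -0.36 to 0.28 for F13a1. With Adgre1, Csf1r and Fcgr1 alone as the reference, TJ against GT was 0.16 for Lyve1, 0.16 for Chil3 and 0.25 for F13a1.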
